A study of Mus musculus with 2 samples.

Results

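The 7 miRNA genes followed here in the mouse adrenal gland belong to epithelial tissues: the 5 genes of the miR-200 family (Mir200a, Mir200b, Mir429, Mir200c and Mir141), Mir203 and Mir205. They were chosen by symbol in GENCODE M21, and all 7 of 7 were found in the files, beside 2195 other annotated miRNA genes. Small RNA of under 30 nt was sequenced from whole adrenal glands of male B6CASTF1/J mice aged 2 months, first-generation crosses between an inbred laboratory strain and the wild-derived castaneus strain. The series holds 1 group of 2 libraries, replicate 1 from animal 3 and replicate 2 from animal 4, with no treatment, mutant allele or other tissue. Levels are counts per 1000000 reads at all miRNA genes, taken on the gene's own strand (CPM), over 5752428 such reads in replicate 1 and 3333149 in replicate 2.

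The miR-200 family is known for holding cells in an epithelial state: its members repress the transcription factors ZEB1 and ZEB2, which in turn repress E-cadherin and the miR-200 genes themselves. miR-203 is best known from the skin, where it limits the stem-cell factor p63 as keratinocytes leave the basal layer, and miR-205 from basal and squamous epithelia. The steroid-producing cortex of the adrenal arises from mesoderm and the catecholamine-producing medulla from the neural crest, so neither is an epithelium of the lining type in which these miRNAs are most studied. No mRNA was measured, so neither targets nor protein markers of the gland can be read from these files. The labelled tissue could therefore not be checked against defining mRNA markers. The miRNA lists for steroid-producing and neuroendocrine tissue, given further on, were both counted in both libraries, which does not establish the tissue.

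The mature products divide the family by seed. The seed, bases 2 to 8 from the 5′ end, decides most of a miRNA's targets. RefSeq sequences (GRCm38.p6, the assembly also called mm10) were matched for 7 of 7 genes. The product usually described as the main one is shown for each gene, with the seed in capitals.
miR-200c-3p: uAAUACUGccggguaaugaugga
miR-200b-3p: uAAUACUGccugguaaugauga
miR-429-3p: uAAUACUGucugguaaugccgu
miR-200a-3p: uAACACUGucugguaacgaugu
miR-141-3p: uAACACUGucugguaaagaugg
miR-203-3p: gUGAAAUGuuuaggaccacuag
miR-205-5p: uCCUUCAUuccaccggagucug

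The 5 family products fell into 2 seed classes that differ by a single base, U4C from miR-200b-3p to miR-200a-3p, with positions counted from 1 at the 5′ end. Mir200c, Mir200b and Mir429 carry the seed AAUACUG, and Mir141 and Mir200a carry AACACUG. Among the 1738 mature products in the table no further one had either seed, and none shared the seed of miR-203-3p or of miR-205-5p. Over 22 bases, miR-200c-3p and miR-200b-3p differed at 2 positions, as did miR-200a-3p and miR-141-3p, whereas miR-200b-3p and miR-429-3p differed at 4. None of the 7 sequences stood in a second of the 1005 hairpins. The longest run that 2 hairpins had in common was 17 bases, between Mir141 and Mir200a, and 14 or fewer for the other genes. Reads that aligned to several places were not counted at genes (26.2% of all reads in replicate 1 and 28.8% in replicate 2). Whether short reads of the family were lost this way was not tested.

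The family lies at 2 loci (mm10, GENCODE M21). Mir200b (chromosome 4, 156055681 to 156055750), Mir200a (156054896 to 156054985) and Mir429 (156053905 to 156053987) follow each other on the minus strand with 695 and 908 bases between them, in an intron of Ttll10, which encodes a tubulin-modifying enzyme. Mir429 also lies in an exon of the non-coding RNA Gm13648, in whose introns the other two lie. Mir200c (chromosome 6, 124718322 to 124718390) and Mir141 (124717914 to 124717985) are 336 bases apart on the minus strand, in an intron of the non-coding RNA Gm15884. An exon of the unclassified transcript Gm29008 covers 31 bases of Mir141. Mir205 (chromosome 1, 193507463 to 193507530, minus strand) is exonic in the long non-coding RNA 4631405K08Rik. Mir203 (chromosome 12, 112130880 to 112130955, plus strand) overlaps no annotated gene and has its nearest neighbour, Aspg, at a distance of 3320 bases.

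Mir203 was by far the highest of the 7 genes. It had 3514 reads in replicate 1 and 3831 in replicate 2, or 611 CPM (95% Clopper-Pearson interval 591 to 631) and 1149 CPM (1113 to 1186), a mean of 880 ± 381 CPM (SD, n = 2). Mir203 supplied 91.2% of the reads of the 7 genes in replicate 1 and 95.7% in replicate 2. By mean level it ranked 78 among all annotated miRNA genes, and the other 6 members ranked from 240 to 449. All intervals given here cover counting error of reads only. PCR copies of 1 molecule could not be told from separate molecules, so the intervals may be too narrow even for that. In whole tissue, fewer cells of a type and less RNA per cell cannot be told apart.

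The miR-200 family was counted at low levels, and Mir200c led it in both animals. Mir200c had 223 and 88 reads in replicates 1 and 2, or 38.8 CPM (33.8 to 44.2) and 26.4 CPM (21.2 to 32.5). Mir429, which has the same AAUACUG seed, had 35 and 23 reads, or 6.08 and 6.90 CPM. Both libraries of Mir200c lay above both of Mir429. Mir200b, the third gene with that seed, had 30 reads (5.22 CPM) in replicate 1 and 24 (7.20 CPM) in replicate 2. Mir141, the neighbour of Mir200c, had 26 reads (4.52 CPM) in replicate 1 and 25 (7.50 CPM) in replicate 2. Mir200a was the lowest of the family, with 21 reads (3.65 CPM) in replicate 1 and 9 (2.70 CPM) in replicate 2.

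Mir205 was barely counted. Its 5 reads in replicate 1 and 4 in replicate 2 came to 0.869 CPM (0.282 to 2.03) and 1.20 CPM (0.327 to 3.07). A count of 0 would have allowed levels of up to 0.522 and 0.900 CPM in replicates 1 and 2, and Mir205 stood just above both limits. Of the 7 genes, 6 reached 2 CPM in both libraries, the level taken here as detection, and Mir205 reached it in neither. Over all annotated miRNA genes, 372 (16.9%) did so. At least 1 read in each library, as Mir205 had, was found for 583 genes (26.5%).

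**Figure D1:**
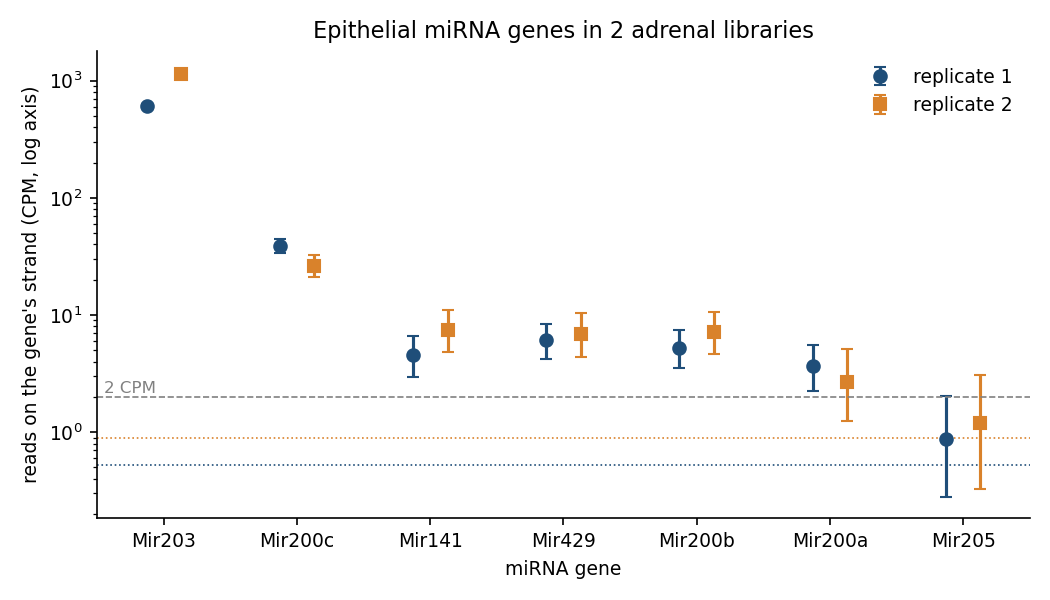
Level of each gene in CPM on a log axis, with replicate 1 as circles and replicate 2 as squares. Bars are 95% Clopper-Pearson intervals, the dashed line is 2 CPM, and the dotted lines are the limits that a count of 0 allows. Mir203 stands at 611 and 1149 CPM, Mir200c at 38.8 and 26.4 CPM, and Mir205 at 0.869 and 1.20 CPM.

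The order of the levels was settled in part. Both libraries put Mir203 above Mir200c, 15.8-fold (13.8 to 18.1) in replicate 1 and 43.5-fold (35.2 to 54.4) in replicate 2. Mir200c in turn lay above Mir429, Mir200b and Mir141 in both. Those 3 genes averaged 6.49 ± 0.577, 6.21 ± 1.40 and 6.01 ± 2.11 CPM (SD, n = 2 each), and their ranges overlapped, so their order was not resolved. Mir200a averaged 3.18 ± 0.672 CPM, below all 3, but its counting intervals overlapped with theirs in both libraries. Mir141 exceeded it 1.24-fold (0.670 to 2.31) in replicate 1 and 2.78-fold (1.25 to 6.76) in replicate 2. Mir205 averaged 1.03 ± 0.234 CPM. Its counting interval was clear of that of Mir200a in replicate 1 and overlapped with it in replicate 2.

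**Figure D2:**
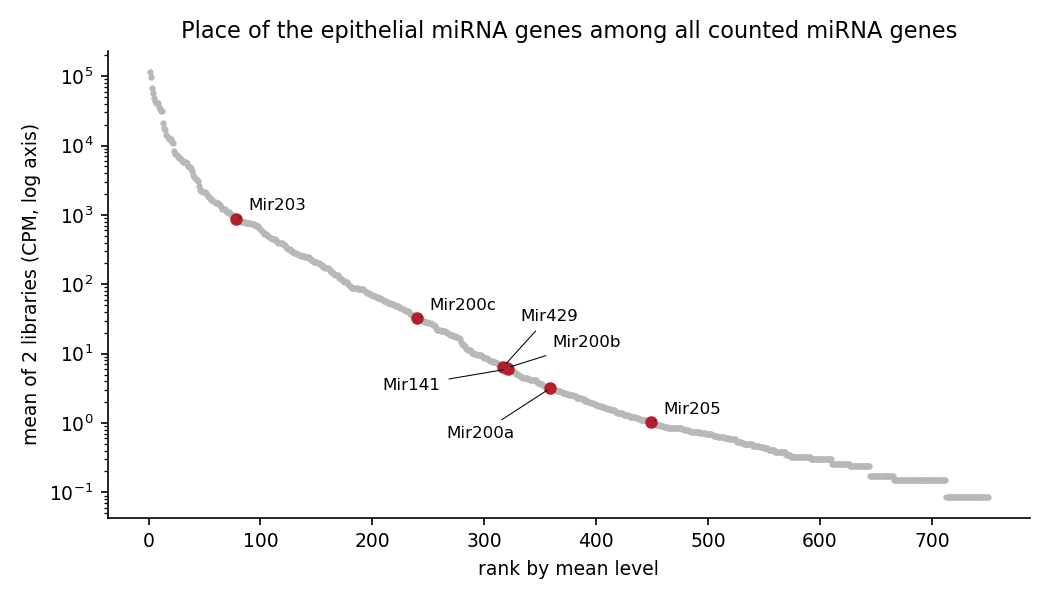
Mean CPM of both libraries on a log axis against rank, for every miRNA gene with at least 1 read (grey points), with the 7 genes in red. Mir203 is at rank 78, Mir200c at 240, Mir429, Mir200b and Mir141 at 317, 320 and 321, Mir200a at 359 and Mir205 at 449.

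Genes of the same locus did not have equal counts. On chromosome 6, Mir200c exceeded Mir141 8.58-fold in replicate 1 (5.70 to 13.4) and 3.52-fold in replicate 2 (2.24 to 5.73). On chromosome 4 the members lay closer together: Mir429 and Mir200b were level, at 1.17-fold (0.696 to 1.97) and 0.958-fold (0.517 to 1.77). Mir200b exceeded Mir200a 1.43-fold in replicate 1 (0.791 to 2.63) and 2.67-fold in replicate 2 (1.20 to 6.52). Each of these ratios is taken within a library and does not depend on how the libraries are scaled. How readily each sequence is captured in the library was not measured, so a ratio of reads is not a ratio of molecules.

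Summed by locus, the chromosome 6 genes had 43.3 and 33.9 CPM in replicates 1 and 2, against 15.0 and 16.8 CPM for the chromosome 4 genes. The chromosome 6 genes were thus 2.90-fold higher (2.26 to 3.74) in replicate 1 and 2.02-fold higher (1.45 to 2.83) in replicate 2. Summed by the seed of the product shown above for each gene, the genes of the AAUACUG class had 50.1 and 40.5 CPM. Those of the AACACUG class had 8.17 and 10.2 CPM. Counts are per gene and do not separate its products. The sums therefore include any reads of the other product of each gene, which has a different seed, and are not levels of the seeds themselves. The AAUACUG class was 6.13-fold higher (4.49 to 8.53) in replicate 1 and 3.97-fold higher (2.71 to 5.97) in replicate 2. Both sums rest largely on Mir200c, which belongs to the higher side of each.

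**Figure D3:**
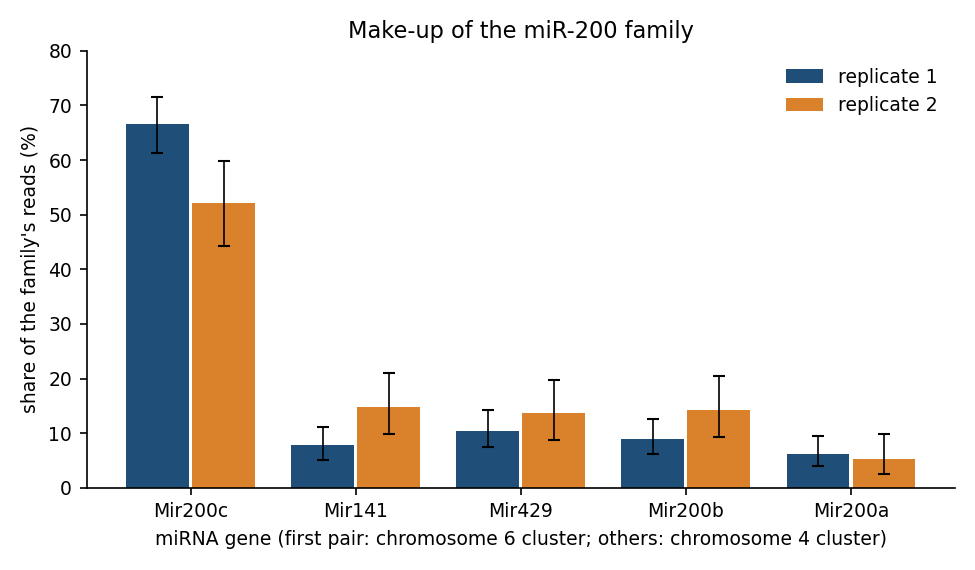
Share of the miR-200 family's reads taken by each gene, in percent, for replicate 1 (335 reads) and replicate 2 (169 reads), with 95% Clopper-Pearson intervals. Mir200c takes 66.6% in replicate 1 and 52.1% in replicate 2, and no other gene exceeds 14.8%.

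The make-up of the family differed between the 2 libraries mainly through Mir200c. With 1 library per animal, a difference between animals cannot be told from one between library preparations. It took 66.6% of the family's reads in replicate 1 (61.2 to 71.6) and 52.1% in replicate 2 (44.3 to 59.8), and these intervals do not overlap. Mir141 had 7.76% (5.13 to 11.2) in replicate 1 and 14.8% (9.81 to 21.1) in replicate 2, with overlapping intervals. The family as a whole came to 58.2 CPM (52.2 to 64.8) in the first library and 50.7 CPM (43.3 to 58.9) in the second.

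Between the 2 libraries, 1 from each animal, Mir203 and Mir200c differed beyond counting error, in opposite directions. Mir203 was lower in replicate 1, with a log2 ratio of replicate 1 over replicate 2 of -0.71 (counting SE 0.034) after TMM scaling of the libraries (adjusted p = 2.7e-98, two-sided exact binomial test with Benjamini-Hochberg adjustment over all genes tested). Mir200c was higher in replicate 1, with a log2 ratio of 0.75 (SE 0.18, adjusted p = 5.06e-05 by the same exact test). The ratio of Mir203 to the whole family, which no scaling changes, was 10.5 (9.37 to 11.8) in replicate 1 and 22.7 (19.4 to 26.6) in replicate 2. Of the 6 members tested (10 or more counts in mean), these 2 were called, 1 in each direction. Such calls were common: 232 of 389 miRNA genes tested (59.6%) passed, of which 120 were higher in replicate 1 (30.8% of those tested) and 112 lower (28.8%). This test compares 2 libraries, not conditions, has no spread between animals in it and treats each read as a separate molecule.

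The remaining tested members did not pass the exact test, and their intervals are wide. Their log2 ratios were 0.59 for Mir200a (SE 0.56, adjusted p = 0.464 by the exact test), 0.0064 for Mir429 (SE 0.38), -0.27 for Mir200b (SE 0.39) and -0.53 for Mir141 (SE 0.40). The median of the 6 members was -0.13, against 0.0064 over all genes tested, which is the ratio of Mir429. The log2 ratio of Mir200c, 0.75, is under 2 counting SEs for each of these 4 genes, so a difference of that size was hardly detectable in them. Genes with a mean count within 2-fold of that of Mir141 were called in 27.2% of cases, and those near Mir203 in 85.7%. Differences of the size of Mir203 were not rare either, since 107 of the 389 genes had a larger ratio in either direction, and 100 had a larger one than Mir200c.

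**Figure D4:**
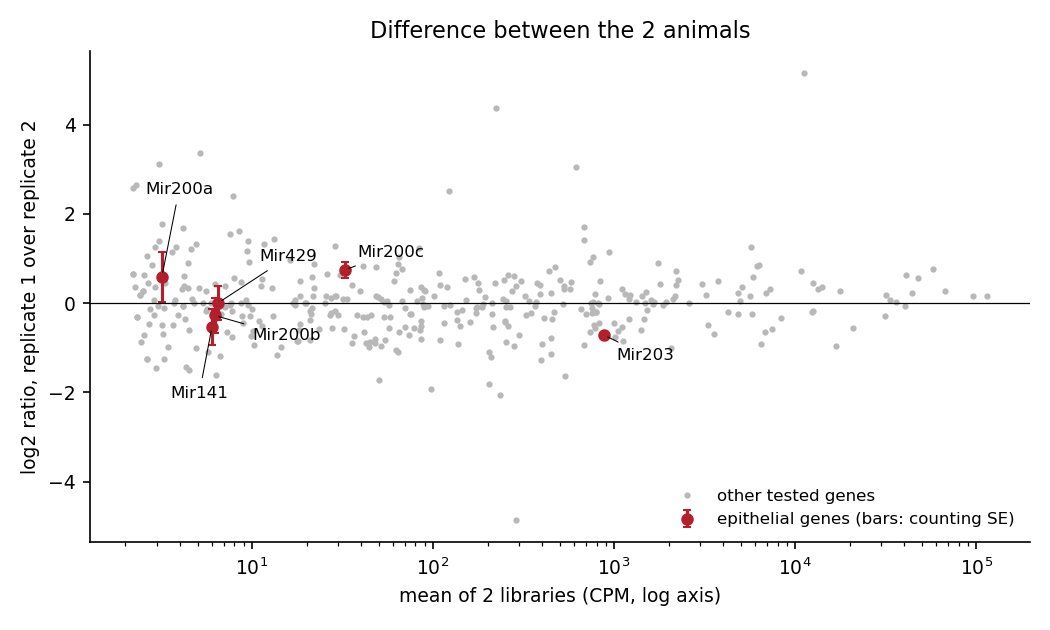
Log2 ratio of replicate 1 over replicate 2 after TMM scaling, against mean CPM on a log axis, for 389 miRNA genes (grey) and the 6 tested epithelial genes (red, bars are the counting SE). Mir203 lies at -0.71 and Mir200c at 0.75, both within the spread of the other genes.

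Scaling and dispersion bear on these calls. TMM moved every log2 ratio up by 0.20 relative to total counts. By total counts Mir203 was at -0.91 and Mir200c at 0.55, both still called, while 85 of 255 called genes were higher in replicate 1 and 170 lower. With the common dispersion that edgeR estimates from the same 2 libraries, its exact test called neither gene (unadjusted p = 0.344 for Mir203 and 0.337 for Mir200c, each with adjusted p = 1). That dispersion contains the differences under test, so the lack of calls does not show that the animals were alike.

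Reads from the strand opposite Mir203 were also counted. They numbered 124 in replicate 1 and 190 in replicate 2, or 3.41% (2.84 to 4.05) and 4.73% (4.09 to 5.43) of all reads at the locus. The other members had 0 opposite-strand reads in both libraries, save 1 read at Mir200a in replicate 2. There were 259 miRNA genes with a mean count of at least 100, and 9 of them (3.47%) had more than 3 opposite-strand reads in both libraries. GENCODE M21 annotates a miRNA gene on the opposite strand for 4 of these 9, among them Mir24-1 and Mir486, and none for Mir203. By mean share Mir203 stood at rank 3 of the 259. On the scale used for the genes, the opposite-strand reads amount to 21.6 and 57.0 CPM in replicates 1 and 2. In replicate 2 they thus outnumbered the 169 reads of the whole miR-200 family. In replicate 1 they were fewer than the 335 reads of the family.

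RefSeq places a further miRNA hairpin, Gm51289, on the minus strand of this locus (chromosome 12, 112130887 to 112130946, GRCm38.p6), and all 60 of its bases lie within Mir203. Its products are named miR-203b, and they are shown here with those of Mir203 because each is complementary to a product of the other strand.
miR-203-5p: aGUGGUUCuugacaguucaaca
miR-203b-3p: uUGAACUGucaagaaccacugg
miR-203-3p: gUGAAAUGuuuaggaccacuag
miR-203b-5p: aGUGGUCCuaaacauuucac

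The seeds, in capitals, differ among all 4, although the products of the 2 strands are complementary to each other over runs of 20 bases, miR-203-3p with miR-203b-5p and miR-203-5p with miR-203b-3p. The files give 1 count per strand and gene, so the opposite-strand reads could not be assigned to an arm, nor to Gm51289 rather than to another transcript of that strand.

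Set beside other miRNA lists, Mir203 was of the order of several of them and the miR-200 family was below all. The list of other epithelial or secretory miRNAs summed to 70211 and 47250 CPM in replicates 1 and 2, nearly all from Mir375, a miRNA of endocrine cells. Without it the next was Mir31, with 978 and 550 CPM, above Mir203 in replicate 1 and below it in replicate 2. The ciliated-epithelium list reached 1109 and 1940 CPM, led by Mir34c, a p53-responsive miRNA that is not limited to ciliated cells. Of the 5 genes of that list, 3 reached 2 CPM in both libraries, as did 16.9% of all annotated miRNA genes. The rest had 2 reads or fewer in each library, within the 3 counts that a count of 0 allows. The kidney and gut list held 97.4 and 141 CPM, led by Mir204. Endothelial Mir126a, at 69154 and 65133 CPM, exceeded the whole miR-200 family by orders of magnitude. The summed mesenchymal list (33519 and 34841 CPM) did so too, nearly all from Mir143 (31774 and 31884 CPM). Not every gene of that list lay above the family. The steroid-tissue list had 1461 and 1550 CPM, nearly all from Mir132 (1416 and 1449 CPM). The neuroendocrine list had 4022 and 5211 CPM, led by Mir7b. Genes whose symbols carry a copy number, such as Mir194-1, Mir199a-1 and Mir7-1, may be undercounted, since reads that aligned to several places were left out, but this was not tested.

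**Figure D5:**
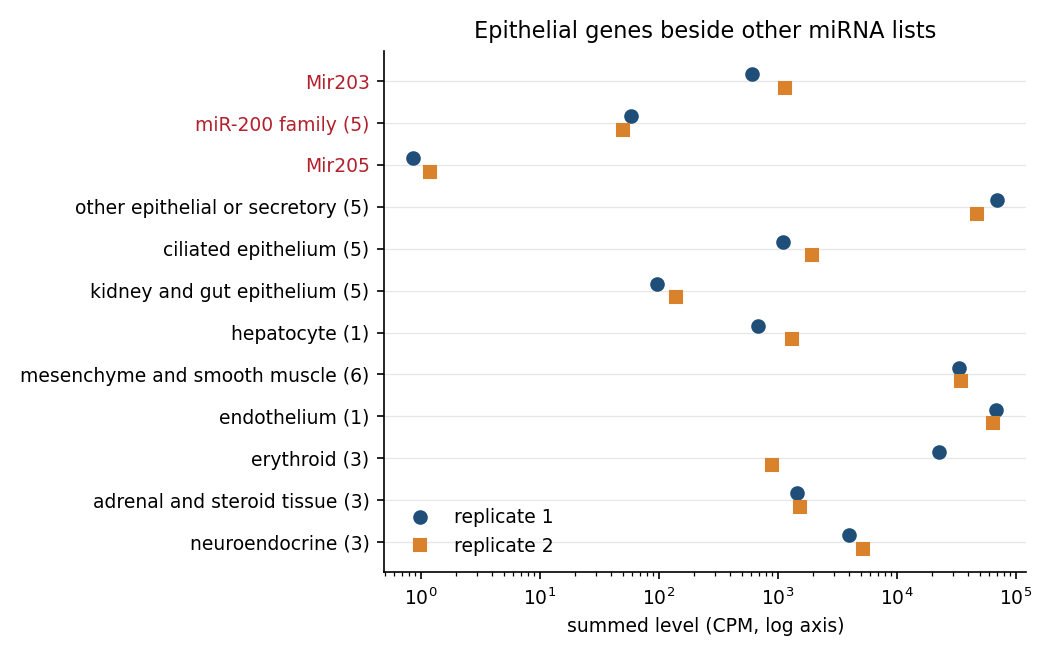
Summed CPM on a log axis for Mir203, the miR-200 family, Mir205 and 9 other lists (number of genes in brackets), with replicate 1 as circles and replicate 2 as squares. The family, at 58.2 and 50.7 CPM, lies below each of the 9 lists, and the erythroid list shows the widest gap between the libraries.

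Genes of the other lists also differed between the 2 libraries. The calls come from the exact binomial test, by which 30.8% of all tested genes were called higher in replicate 1 and 28.8% lower, and nothing particular to a list is read from them. The hepatocyte miRNA Mir122, at 690 CPM in replicate 1 and 1331 in replicate 2, was called lower in replicate 1 (log2 ratio -0.75). In the ciliated-epithelium list 3 of 3 tested genes were called lower (median log2 ratio -0.60), and in the kidney and gut list 2 of 4 were called lower and none higher (median -0.20). Of the 5 other epithelial or secretory genes, 3 were called higher, Mir31 (log2 ratio 1.03), Mir375 (0.77) and Mir183 (0.68), and 1 lower, Mir96 (-1.17). The mesenchymal list was split, with 2 of 5 tested genes higher and 2 lower. The steroid-tissue and neuroendocrine lists each had 1 of 3 tested genes higher and 1 lower. The erythroid list had the widest gap in its sum, with 22813 CPM in replicate 1 against 901 in replicate 2. Most of it came from Mir451a (21615 and 695 CPM), and 3 of 3 tested genes were called higher. With a common dispersion, which contains these differences itself, edgeR's exact test called 4 of the 389 genes in all. With the erythroid genes left out of the total, Mir203 stood at 625 and 1150 CPM in replicates 1 and 2, and Mir200c at 39.7 and 26.4 CPM. Leaving the erythroid genes out changes only the total, alike for all genes of a library. What underlies the differences in the levels of Mir203 and Mir200c was not tested.

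The genes nearest to each member by level in both libraries, measured as Euclidean distance of log2(CPM + 1) over the 2 libraries, came from unrelated families in most cases. Mir181c (650 and 1012 CPM, distance 0.204) and Mir484 (585 and 992 CPM) were nearest to Mir203. Gm49347 and Mir378c were nearest to Mir200c, and Mir3076 and Mir199a-2 to Mir429. Mir141 had Mir200b as its nearest gene (distance 0.179), from the other locus and the other seed class. Mir701 and Mir592 were nearest to Mir200b, and Mir26a-1 and Gm25745 to Mir200a. With 2 libraries of 1 group, this likeness is one of level alone.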

How the data were processed

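Small RNA from adrenal glands of 2 mice was sequenced, 1 library for each, per the labels. The authors deposited raw counts of reads per miRNA gene for mm10 and GENCODE M21, per the files that describe each library. Which aligner and trimming tool were used is not given in the sources. Of the 3 columns per file, judged from their values, 1 ignores strand, 1 holds the gene's strand and 1 the opposite strand. Levels come from the column of the gene's strand. The 4 leading rows name no gene and hold 66.2% of reads in replicate 1 and 69.0% in replicate 2. Neither library sizes nor tests include them. Depth was 5752428 and 3333149 reads at miRNA genes.

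From these, CPM, exact Clopper-Pearson intervals at 95% and ratios within a library were computed. For each gene with a mean count of at least 10, the libraries were set against each other with an exact binomial test (two-sided) on TMM effective sizes. P-values were adjusted by Benjamini-Hochberg over all of these genes and called at 0.05. Log2 ratios had 0.5 counts added. With 1 group no quasi-likelihood test was possible. The test was run on simulated libraries with counting error only, and it takes no account of spread between animals. The labels name animals 3 and 4 and biological replicates 1 and 2, but give both samples 1 donor record. They were taken as separate animals. The named genes were the 7 members, the partner over Mir203, the leading gene of each list, and the 2 genes nearest to each member. Mir31, Mir96, Mir183, Mir24-1, Mir486 and the copied genes were added to the names once their values had been seen. The members and lists were chosen with earlier results of these data known. Alternatives covered denominators, scaling, strand, filters, pseudocounts, dispersion and single libraries. Scaling used edgeR 4.0.16 and DESeq2 1.42.0 in R 4.3.3, and the exact test with a common dispersion used the same edgeR. All else used Python 3.11.15 with SciPy 1.17.1, NumPy 2.4.6, matplotlib 3.10.9 and pandas 2.3.3.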

Additional observations from a re-analysis of the deposited data

Results flagged for a closer look

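The reads on the strand opposite Mir203 came from a count column outside the main measurement, which took reads on the gene's own strand. They numbered 124 in replicate 1 and 190 in replicate 2, each above the 3 counts that a count of 0 allows, and the series has no control samples to set them against.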

How the results depend on the processing

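Of the 7 genes, 6 reached the detection level under the unstranded counts, at 1 CPM and in either library alone, and 4 at 5 CPM. The summed level of the 7 genes was 936 CPM. It became 299.5 CPM when divided by all reads and 3947 CPM without the 20 most abundant genes in the total. The miR-200 family, at 54.5 CPM, became 17.7 and 229 CPM under these denominators and 65.0 CPM in counts without regard to strand, where reads at overlapping genes drop out of the total. Without replicate 1 or 2 the sums ranged from 670 to 1201 CPM for the 7 genes and from 50.7 to 58.2 CPM for the family. The ratio of the chromosome 6 to the chromosome 4 genes ranged from 2.02 to 2.90, and that of the seed classes from 3.97 to 6.13. Of the 389 tested genes 232 were called by the exact binomial test, 230 with DESeq2 size factors and 255 by total counts. By edgeR's exact test with a common dispersion 4 were called (16 at an unadjusted p under 0.05), and Mir203 and Mir200c no longer were. That dispersion was estimated from the same 2 libraries and contains the differences under test, so this test cannot decide whether they are real. The log2 ratio of Mir429, which was not called, was 0.0064, but -0.19 by total counts and -0.0038 with 1 count added. The library test cannot be run without a replicate. Depth limits the 5 lowest genes, which have 35 reads or fewer in each library. No paired analysis was possible because the series has 1 group.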
